A study of Mus musculus with 24 samples.

Results

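The genes described here encode 4 subunits of the muscle acetylcholine receptor (Chrna1, Chrnb1, Chrnd and Chrng), the enzyme acetylcholinesterase (Ache) and the collagen tail that anchors that enzyme in the synaptic basal lamina (Colq). They were taken as every probe set whose annotation gave one of these 6 symbols and no other, which found 7 probe sets, with Chrng represented by both 95639_at and 161215_at. That is 6 of 8251 genes with a probe set of their own and 7 of 12422 probe sets that were not controls. All 7 passed the filter on dim signals. For Ache the daily mean exceeded the filter's threshold on days 4, 6, 8 and 10 only.

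At the neuromuscular junction, acetylcholine released by the motor nerve opens a receptor channel assembled from alpha, beta, delta and gamma subunits in embryonic muscle. In innervated adult muscle the epsilon subunit, encoded by Chrne, takes the place of gamma. Acetylcholinesterase ends the signal by cleaving the transmitter, and ColQ links its catalytic subunits to the matrix of the synaptic cleft. The receptor genes are known targets of the myogenic basic helix-loop-helix factors, which bind E-boxes in their promoters.

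Cultures of C2C12, an established mouse myoblast line, were grown without nerve, and their total RNA was hybridised to 24 oligonucleotide arrays of 1 design, 3 for each of 8 days. Days -2 and -1 held proliferating myoblasts, and day 0 held confluent cells at the addition of differentiating medium. Days 2, 4, 6, 8 and 10 held cells after that number of days in the medium, in which C2C12 cells form myotubes. The labels gave neither the medium's composition nor whether day 0 RNA preceded the addition, and they did not describe the 3 arrays of a day as separate cultures, so each p-value measures the spread between these arrays only, which may be technical.

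Promoters in the RefSeq set (build GRCm38.p6) were matched for 4 of the 6 genes, Chrna1, Chrnb1, Chrng and Ache. They are shown because the receptor genes all rose by day 2 and the E-box is the element through which myogenic factors are known to act on them. Each line gives the 200 bases before the annotated start of the gene, 5′ to 3′ on the gene's strand, with every match to the E-box CANNTG in capitals. The intervals were chr2:73580339-73580538 on the minus strand for Chrna1, chr11:69795938-69796137 on the minus strand for Chrnb1, chr1:87205611-87205810 on the plus strand for Chrng and chr5:137288054-137288253 on the plus strand for Ache.
Chrna1: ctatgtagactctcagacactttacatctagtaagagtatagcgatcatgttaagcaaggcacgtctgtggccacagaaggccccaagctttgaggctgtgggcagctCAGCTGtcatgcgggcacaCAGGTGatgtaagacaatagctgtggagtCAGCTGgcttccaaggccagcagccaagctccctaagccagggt
Chrnb1: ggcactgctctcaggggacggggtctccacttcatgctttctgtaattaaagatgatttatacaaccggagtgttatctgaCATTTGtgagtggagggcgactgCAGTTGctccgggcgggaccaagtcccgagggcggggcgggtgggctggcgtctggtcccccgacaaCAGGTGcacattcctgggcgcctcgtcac
Chrng: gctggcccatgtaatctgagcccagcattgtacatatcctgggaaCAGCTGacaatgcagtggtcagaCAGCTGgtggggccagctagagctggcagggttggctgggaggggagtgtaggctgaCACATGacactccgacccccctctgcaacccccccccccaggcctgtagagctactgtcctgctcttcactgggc
Ache: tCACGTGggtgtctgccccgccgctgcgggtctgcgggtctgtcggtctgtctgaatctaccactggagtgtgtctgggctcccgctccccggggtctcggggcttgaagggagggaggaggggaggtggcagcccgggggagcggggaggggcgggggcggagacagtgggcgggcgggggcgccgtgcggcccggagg

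In the 250 bases before the start, searched on both strands, Chrna1, Chrnb1 and Chrng each held 3 matches to CANNTG, and 12.2% of 32851 promoters held at least 3. Ache held 1, and 66.2% of promoters held at least 1. The form CAGCTG stood at bases -92 and -44 of Chrna1 and at -155 and -132 of Chrng, counted from the start, and 1.3% of promoters held at least 2 of it. CAGGTG, a further form of the same E-box pattern, stood at -73 of Chrna1 and at -29 of Chrnb1, and 17.2% of promoters held at least 1. CCGGAA, the core of the N-box that is known to bind ETS factors, had no match in these 4 windows and was present in 12% of promoters. The GC content of the 250 bases was 50.8% for Chrna1, 60.4% for Chrnb1, 59.2% for Chrng and 73.6% for Ache. Chrnd and Chrng are neighbours on chromosome 1, with 0 annotated genes between them.

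The 7 probe sets followed 4 courses. Chrna1, Chrnd and Chrng were higher by day 0 and higher again on day 2. Chrnb1 was first higher on day 2. Ache was near the floor of the signal scale through day 2 and about 11 times higher on day 4. Colq was low and variable throughout. Across the 8 days a moderated F test in limma called 7 of the 7 probe sets at an adjusted p under 0.05, against 55.1% of the 8484 probe sets tested. The weakest of these was Colq (adjusted p = 0.00718) and the others had adjusted p of at most 1.44e-09. Before the log2 step a floor was set at 77, the 20th percentile of the table.

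**Figure D1:**
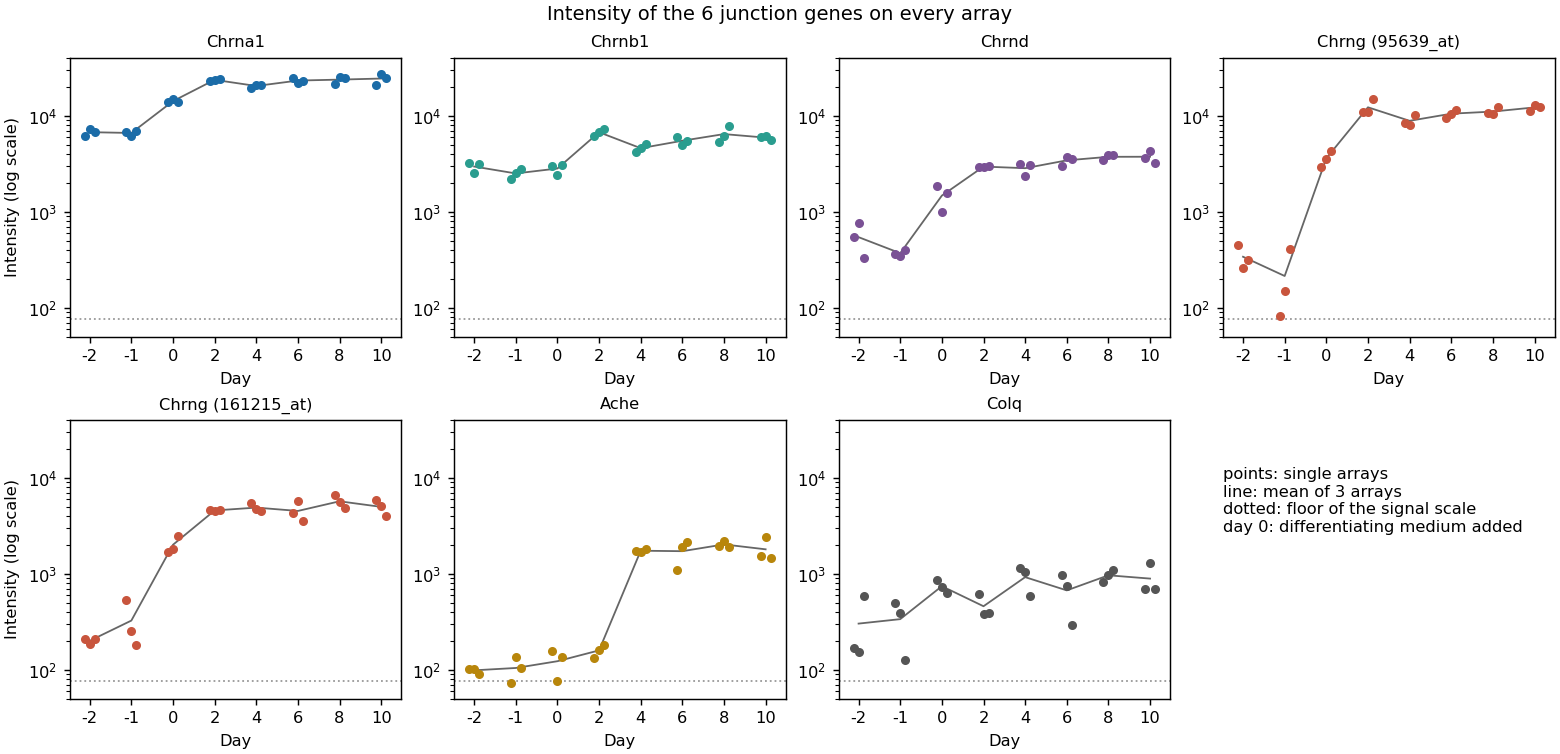
Intensity (log scale) of each of the 7 probe sets against day, with a point for each array, a line through the mean of 3 arrays and a dotted line at the floor of 77. Ache stays at or below 182.1 through day 2 and is at or above 1085.5 from day 4, whereas Chrng 95639_at is already between 2950.7 and 4286.3 on day 0.

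The alpha subunit contributes the principal face of the transmitter-binding sites. Chrna1 (100021_at) gave intensities of 6222, 7223 and 6839 on day -2 and of 6846, 6097 and 6948 on day -1. On day 0 its 3 arrays read 13884, 14957 and 13863, and on day 2 they read 22949, 23795 and 24449.6. The arrays of days 0 and 2 each lay wholly above those of the day before them, and the proliferating days overlapped. Chrna1 rose by 1.1 ± 0.09 (log2 change ± SE, n = 3 against 3, limma adjusted p = 4.76e-09) from day -1 to day 0 and by 0.74 ± 0.09 (adjusted p = 2.04e-06) from day 0 to day 2. Its later arrays read 19343, 20987 and 21105 on day 4 and ranged from 21042 to 27539.9 over days 6, 8 and 10. No step after day 2 was called for Chrna1. Its days ranked 10, 8, 2, 6, 4, 0, -2 and -1 from high to low, and neighbouring ranks overlapped except between days 6 and 4, 4 and 0, and 0 and -2.

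The delta subunit shares in forming a transmitter-binding site with alpha. Chrnd (96549_at) read 541.5, 761.7 and 329 on day -2 and 362, 348 and 401 on day -1. On day 0 it read 1841, 996 and 1589, and on day 2 it read 2911, 2951 and 3018. The 3 arrays of day 0 were spread widely but lay above all 6 arrays of the proliferating days. Chrnd rose by 1.95 ± 0.23 (log2, limma adjusted p = 5.23e-07) into day 0 and by 1.05 ± 0.23 (adjusted p = 0.00123) from day 0 to day 2. From day 4 on, its 12 arrays lay between 2347 and 4338, a range that includes the arrays of day 2. With scan day as a fixed factor the step from day 0 to day 2 was 0.87 and no longer called (adjusted p = 0.0871).

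The gamma subunit is the embryonic one. Chrng read 450.6, 258 and 312 on day -2 and 82.5, 151 and 409.7 on day -1 with 95639_at. On day 0 the same probe set read 2951, 3586 and 4286, and on day 2 it read 10882, 10879 and 15076. The second probe set, 161215_at, read 1694, 1833 and 2508 on day 0 and 4604, 4562 and 4579 on day 2, after 182 to 539.9 on the proliferating days. In both probe sets the groups of days 0 and 2 overlapped neither each other nor the proliferating days.

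Chrng rose by 4.37 ± 0.33 (log2, limma adjusted p = 6.75e-10) from day -1 to day 0 in 95639_at and by 2.76 ± 0.26 (adjusted p = 2.29e-08) in 161215_at. The day -1 arrays of both probe sets were dim and widely spread, and against day -2 the rises into day 0 were closer, 3.43 ± 0.33 and 3.31 ± 0.26. From day 0 to day 2 the rises were 1.77 ± 0.33 (adjusted p = 0.000284) and 1.21 ± 0.26 (adjusted p = 0.00119). The second of these was 0.88 and not called with scan day as a fixed factor (adjusted p = 0.279). On day 4 the arrays of 95639_at read 8509.9, 8013 and 10110.3, all below those of day 2, a change of -0.46 ± 0.33 that was not called (adjusted p = 0.405). In the scan day that held 1 array of both days that change was -0.91. The second probe set, 161215_at, did not show this fall. Its arrays read 5430.5, 4777.3 and 4515.3 on day 4, overlapping those of day 2, and in the same scan day it changed by 0.06. Over days 6, 8 and 10 the arrays of 95639_at lay between 9588 and 13013. Both probe sets have the same target gene and are no independent evidence of each other's change.

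Chrnb1 encodes the beta subunit, which the embryonic and the adult receptor share. Its probe set 93705_at read 3188, 2541 and 3163 on day -2, 2218, 2552 and 2762 on day -1 and 3013, 2409 and 3056 on day 0. These 9 arrays overlapped across the 3 days. On day 2 the gene read 6222, 6729.5 and 7297, above all 9. Chrnb1 changed by 0.17 ± 0.14 (limma adjusted p = 0.437, 95% interval -0.12 to 0.45 in log2) into day 0 and rose by 1.26 ± 0.14 (adjusted p = 2.04e-07) from day 0 to day 2.

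On day 4 the Chrnb1 arrays read 4159, 4612 and 5037, all below those of day 2, and the gene fell by 0.55 on the log2 scale (SE 0.14, limma adjusted p = 0.00764). That fall was not called with chip lot as a fixed factor (-0.44, adjusted p = 0.0623) or with scan day as one (-0.49, adjusted p = 0.125). Within the single chip lot that held both days, and on the single scan day that did, the change was -0.66 from 1 array of each day. Day 6 (4972 to 6036) overlapped day 4 and lay below day 2, day 8 (5319 to 7918) overlapped day 2 and lay above day 4, and day 10 (5543 to 6217) lay above day 4 and below day 2.

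Acetylcholinesterase was the late gene of the group. Ache (104650_at) read 102.6, 103 and 90.9 on day -2 and 73.2, 135.8 and 104.7 on day -1. It read 155.8, 77.2 and 136 on day 0 and 133.8, 162.6 and 182.1 on day 2. All 12 of these arrays lay below 277.7, the 40th percentile of all values, and each group overlapped the next. On day 4 the arrays read 1733, 1684 and 1814, above every earlier array.

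From day 2 to day 4 Ache rose by 3.46 ± 0.29 on the log2 scale (limma adjusted p = 3.42e-08), which is 11-fold. With a floor at the 40th percentile it was 2.65 (adjusted p = 1.46e-08). In the chip lot and scan day that held an array of both days the rise was 3.21. The step from day 0 to day 2 was 0.43 ± 0.29 (adjusted p = 0.367, 95% interval -0.18 to 1.03). On day 6 the arrays read 1086, 1926.5 and 2161, on day 8 they read 1956, 2211 and 1918, and on day 10 they read 1534, 2407 and 1468. Day 8 lay above day 4, the other pairs of these 4 days overlapped, and none of their steps was called. Because Ache reached the filter only on its high days, it could enter the tests only with a difference between days. With no filter the step from day 2 to day 4 was also called (adjusted p = 5.59e-07).

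ColQ is the collagen-like tail of the asymmetric enzyme. Colq (100389_at) read 167, 153 and 589.5 on day -2, 499, 387 and 126 on day -1, and 871, 725 and 638 on day 0. On day 2 it read 613, 379.5 and 387, and on day 4 it read 1155, 1035 and 585. The replicate spread was the widest of the 7 probe sets (SE of a change 0.51), and each pair of neighbouring ranks among the days overlapped. Colq was 1.58 ± 0.51 higher on day 0 than on day -2 (log2, limma adjusted p = 0.0178) and 1.35 ± 0.51 higher than on day -1 (adjusted p = 0.0527). The first of these calls was lost without day -2 replicate 1, without day -2 replicate 2 or without day 0 replicate 1 (adjusted p from 0.0639 to 0.104), and turned to -0.39 with scan day as a fixed factor. The second was called in 7 alternatives (adjusted p from 0.025 to 0.0493), namely a filter at the 60th percentile, the largest lot alone and 5 of the settings with an array left out. From day 0 to day 2 its level moved by -0.72 ± 0.51 (adjusted p = 0.382), and over days 6, 8 and 10 its arrays ranged from 295 to 1296.

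Counted by step, 0 of the 7 probe sets were called between days -2 and -1, against 6.07% of all tested probe sets called higher and 3.22% lower. Before adjustment 3 of them had p under 0.05, Chrnd (-0.48), Chrng 95639_at (-0.94) and Chrng 161215_at (0.55), the last pair in opposite directions. From day -1 to day 0, 4 of the 7 rose (Chrna1, Chrnd and both Chrng probe sets) and 0 fell, against 11.9% higher and 13.9% lower. Over the longer span from day -2 to day 0, 5 of the 7 rose, Colq added, against 16.5% higher and 16.1% lower. The median log2 change from day -1 to day 0 was 1.35 over the 7 and 0.01 over all probe sets tested.

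From day 0 to day 2, 5 of the 7 rose, all 4 receptor genes among them and neither Ache nor Colq, against 11.2% higher and 10.4% lower. The median change was 1.05 over the 7 and 0 over all tested. With scan day as a fixed factor 3 of the 7 were called in this step. The estimate for this step in that fit rests on the single scan day that held 1 array of each of these days. There Chrna1 was 0.73 higher on day 2, Chrnb1 1.03, Chrnd 0.87, Chrng 95639_at 1.34 and Chrng 161215_at 0.88. Ache changed by -0.02 and Colq by -0.06. From day 2 to day 4, 1 rose (Ache) and 1 fell (Chrnb1), against 6.39% higher and 7.56% lower.

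After day 4 there were 0 calls among the 7 in any step between successive days, where few of any gene were made. For day 6 against day 4 the shares of all tested probe sets were 0.248% higher and 0.141% lower, for day 8 against day 6 they were 0% and 0.0471%, and for day 10 against day 8 they were 0% and 0%. In limma before adjustment no member had p under 0.05 in these 3 steps. Between days 2 and 10 only Ache differed (3.47 ± 0.29, limma adjusted p = 2.12e-08), against 6.52% of all tested higher and 7.26% lower. For the receptor genes the 95% intervals of that log2 change were -0.16 to 0.23 for Chrna1, -0.47 to 0.10 for Chrnb1, -0.14 to 0.80 for Chrnd and -0.67 to 0.70 for Chrng 95639_at.

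**Figure D2:**
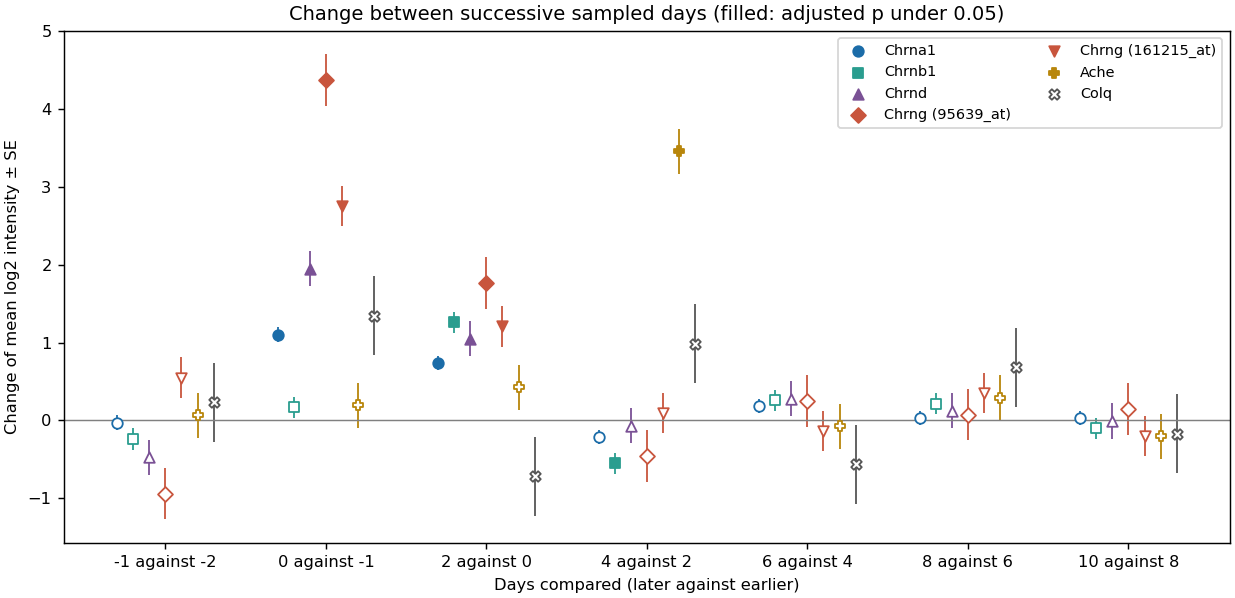
Change of mean log2 intensity between successive sampled days (later against earlier) for the 7 probe sets, with bars of 1 SE from limma and filled symbols for an adjusted p under 0.05. The receptor subunits are filled at the steps into day 0 or day 2, Ache (3.46) and the falling Chrnb1 (-0.55) at the step into day 4, and no symbol is filled after that.

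From the first to the last day 7 of the 7 rose, against 22.2% of all tested higher and 22.3% lower. The sizes differed between the genes. Chrnb1 was 1.01 ± 0.14 higher on day 10 than on day -2 (2.01-fold), Chrna1 1.85 ± 0.09 (3.61-fold), Colq 1.79 ± 0.51 (3.45-fold, limma adjusted p = 0.00556) and Chrnd 2.86 ± 0.23 (7.24-fold). Ache was 4.15 ± 0.29 higher (17.8-fold), a value that ran from 2.66 with a floor at the 40th percentile to 4.55 in the largest chip lot alone, and Chrng was 5.21 ± 0.33 higher in 95639_at (36.9-fold) and 4.62 ± 0.26 in 161215_at (24.6-fold). These are changes within a probe set. Levels of different probe sets were not compared, since probes differ in how strongly they bind.

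How far each gene had come by a given day was expressed as a share of its rise in intensity from day -2 to the mean of days 4 to 10. On day 0 Chrna1 had covered 45.9% ± 3.8 (SD, n = 3), Chrnd 32.1% ± 15 and Chrng 31.6% ± 6.5 with 95639_at and 37.5% ± 9.0 with 161215_at. Chrnb1 stood at -5.2% ± 13.6 and Ache at 1.4% ± 2.4. By day 2 the values were 104.3% ± 4.6 for Chrna1, 142.4% ± 20.2 for Chrnb1 and 83.3% ± 1.9 for Chrnd. Chrng had reached 115.4% ± 23.4 and 90.6% ± 0.4 with its 2 probe sets, while Ache stood at 3.5% ± 1.4. Colq, whose rise was small against its spread, stood at 78.6% ± 21.0 on day 0 and 27.9% ± 23.6 on day 2.

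**Figure D3:**
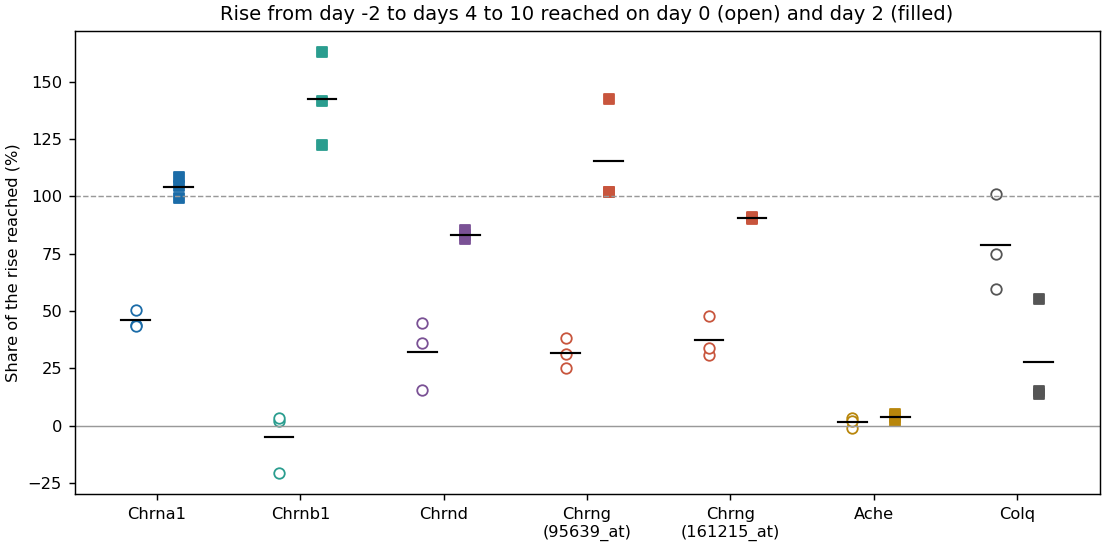
Share of the rise from day -2 to the mean of days 4 to 10 (%) reached by each array of day 0 (open circles) and day 2 (filled squares), with a bar at the mean of 3 arrays. Chrnb1 and Ache lie near 0 on day 0, and on day 2 only Ache remains there, at 3.5%.

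Whether a pair of the 6 genes changed unequally over the days was tested on the difference of their log2 values within each array, which removes any factor common to an array. Of 15 pairs, 12 differed in course (permutation test of the F statistic over days, 100000 resamples, adjusted over 15 pairs). Adjusted p was 3.75e-05 for Chrna1 with Chrng, resting on the smallest raw p the resampling can give, 1e-05. Relative to Chrna1 in the same array, Chrng was 2.35 higher on day 0 than on day -2 and 3.38 higher on day 2, on the log2 scale. Ache relative to Chrna1 moved by -1.13 from day -2 to day 2 and stood 2.54 above its day -2 value on day 4 (permutation adjusted p = 3.75e-05). Chrnb1 relative to Chrna1 moved by -1.15 on day 0 and by -0.62 on day 2 (permutation adjusted p = 0.0001). The other 3 pairs all held Colq, with Chrna1 (permutation adjusted p = 0.284), Chrnb1 (0.088) and Chrnd (0.0508).

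**Figure D4:**
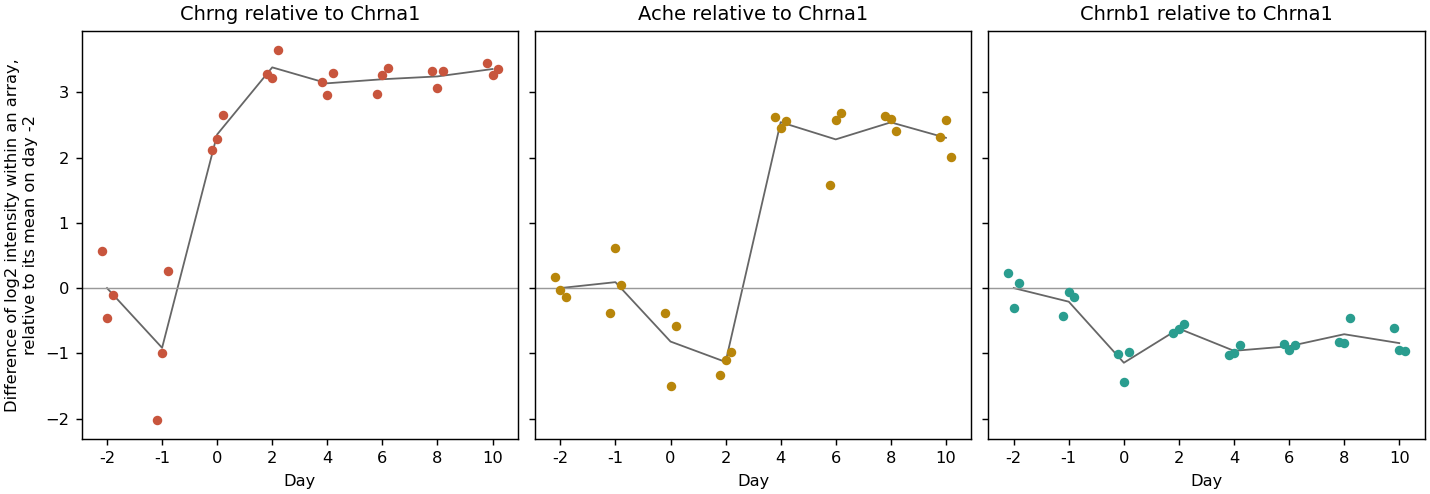
Difference in log2 intensity between the gene named first and Chrna1 within each array, relative to its mean on day -2, against day, with points for arrays and a line through the means of 3. Chrng relative to Chrna1 reaches 3.38 on day 2, Ache relative to Chrna1 moves to -1.13 on day 2 and 2.54 on day 4, and Chrnb1 relative to Chrna1 is at -1.15 on day 0 and -0.62 on day 2.

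As a description over 8 daily means on arrays that they share, the log2 courses of Chrna1, Chrnd and Chrng correlated with each other at r = 0.991 to 0.993. Chrnb1 correlated with these at 0.867 to 0.899 and Ache with the 4 receptor genes at 0.703 to 0.793. The genes of the whole array most like each member were listed by the same measure. Rufy3 (r = 0.997), Bhlhe40 (0.996), Actn3 (0.995) and Tnni1 (0.995) were nearest to Chrna1. Zfp568 (0.997), Acta1 (0.996), Atp13a3 (0.996) and Fst (0.995) were nearest to Chrnd, and Acta1 (0.997), Actc1 (0.995), Zfp568 (0.994) and Rufy3 (0.994) to Chrng. Acta1 and Actc1 encode the sarcomeric actins, Tnni1 slow troponin I and Actn3 a sarcomeric alpha-actinin.

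Nearest to Chrnb1 were Atp9a (r = 0.994), Cpeb2 (0.985), Herpud1 (0.984) and Fgf11 (0.982). Nearest to Ache were Col11a1 (0.994), Camk2b (0.991), Mfge8 (0.986) and Hsd3b7 (0.983), each over 8 daily means. Camk2b, which encodes the beta chain of a calcium/calmodulin-dependent kinase had a mean log2 intensity of 7.93 on day 2 and 10.55 on day 4, given as a description because the gene was picked for its likeness to Ache. Nearest to Colq were Csf3r (0.992), Tsc1 (0.987), H3c14 (0.979) and S100a13 (0.978). These names depend on the processing, since with a floor at the 40th percentile 1 of the 4 stayed among the nearest 4 for Chrng, 2 for Chrna1 and for Colq, and 3 or 4 for the other genes.

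Chrne, the adult epsilon subunit, is not among the 6 genes, and its 3 probe sets disagreed. With 92965_at it read between 71.5 and 260.0 on day -2, 326.3, 152.2 and 55.8 on day 2, and 905, 903 and 885 on day 8. With 92966_g_at the 9 arrays of days -2, 0 and 2 read at most 53.6, those of day -1 read 249.8, 35.1 and 39.6, and the arrays of day 10 read 705, 505 and 639. With 92967_r_at the 24 arrays ranged from 609 to 2298 and every day overlapped the next in rank. Chrne was 2.28 ± 0.50 higher on day 10 than on day 2 with 92965_at (log2, limma adjusted p = 0.00274), with arrays that did not overlap. With 92966_g_at it was at least 7.93-fold higher against a day 2 wholly at the floor, but this probe set reached the filter only through days 8 and 10 and so could enter only with a difference. With 92967_r_at the change was 0.56 ± 0.45 (adjusted p = 0.497). Chrng over the same span changed by 0.01 ± 0.33 (95% interval -0.67 to 0.70).

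**Figure D5:**
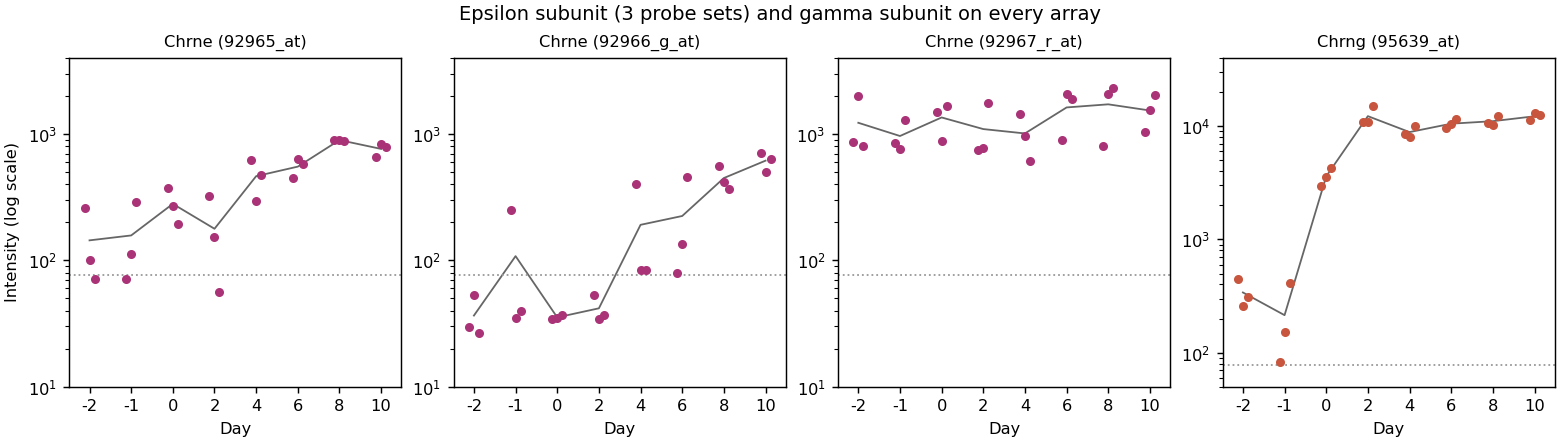
Intensity (log scale) of the 3 probe sets of Chrne and of Chrng 95639_at against day, with a point for each array, a line through the means of 3 and a dotted line at the floor of 77. The first 2 Chrne panels end at 655 to 841.1 and 505.3 to 705 on day 10, the third shows no order over days, and Chrng lies between 8012.9 and 15076.3 from day 2.

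Other genes of the junction were read from a list of 40, of which 31 had a probe set of their own and 28 were tested. Between day -2 and day 2, 14 rose and 0 fell, against 16.5% of all tested probe sets higher and 16.1% lower, with a median log2 change of 0.44 over the 28 and 0 over all tested. Those that rose were Rapsn, Musk, Erbb3, Utrn, Sntb1, Dtna, Ncam1, Prkar1a, Dnaja3, Cdk5, Cdk5r1, Fyn, Nes and Dag1. Sntb1 was dim before day 2 and may have reached the filter only on its high days. The call was not made for Agrn, Gabpa, Gabpb1, Lamb2, Lama5, Sntb2, Crkl, Dvl1, Src, Apc, Macf1, Ank3, Hspg2 and Chrne (92967_r_at). Erbb4, Lama4 and Crk were too dim to be tested.

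Rapsn encodes rapsyn, which clusters the receptor. Its arrays read 2191, 3138 and 2865 on day -2, 4897, 4481 and 3311 on day -1 and 6740, 7455 and 7329 on day 0, with no overlap between successive days. Rapsn rose by 0.63 (log2, limma adjusted p = 0.00244) into day -1, a step in which no receptor subunit was called, and by 0.78 ± 0.13 (adjusted p = 7e-05) into day 0. Musk encodes the agrin-responsive kinase of the synapse, and was 1.75 ± 0.42 higher on day 2 than on day -2 (adjusted p = 0.00197), with no single step between successive days called. Erbb3, a neuregulin receptor, rose by 1.55 ± 0.13 (adjusted p = 3.03e-09) into day 0 and by 3.41 ± 0.13 (adjusted p = 1.36e-15) from day 0 to day 2.

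From day -1 to day 0, 9 of the 28 rose and 0 fell, against 11.9% of all tested higher and 13.9% lower. From day 0 to day 2, 5 rose, Erbb3, Dtna (1.75 ± 0.17), Sntb1 (1.75 ± 0.39), Dag1 (1.29 ± 0.09) and Fyn (1.29 ± 0.17), and 2 fell, Gabpb1 (-0.48) and Cdk5 (-0.83), shares near the 11.2% and 10.4% of all tested. Sntb1 had mean log2 intensities of 6.98, 6.87 and 7.51 on days -2, -1 and 0 and of 9.27 on day 2. It may thus have reached the filter only on its high days, in which case its call could only follow a difference. Dtna and Sntb1 encode dystrobrevin and a syntrophin, and Dag1 encodes dystroglycan, all parts of the complex that links the membrane to laminin. From day 2 to day 4, the step in which Ache rose, 0 of the 28 rose and 2 fell, Erbb3 (-0.41, limma adjusted p = 0.0333) and Fyn (-0.63, adjusted p = 0.0164), against 6.39% and 7.56% of all tested. Between days -2 and 10, 17 rose and 1 fell, against 22.2% and 22.3% of all tested. Chrne entered this count through 92967_r_at, which was not called. Over that span Chrne was 2.59 ± 0.50 higher with 92965_at (limma adjusted p = 0.000154). With 92966_g_at it was at least 7.93-fold higher than a day -2 wholly at the floor. The gene that fell was Sntb2, by at least 3-fold to a day wholly at the floor. Sntb2 read at most 346.8 on any array and may have reached the filter only on its early, higher days. In that case its call could only follow a difference.

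Other genes of the acetylcholine system were little represented. Of 16 neuronal nicotinic and muscarinic receptor genes 5 had a probe set of their own. Chrna6, Chrna7, Chrm1 and Chrm4 were tested, and Chrnb2 was too dim. In limma 0 of these 4 were called in each of 11 comparisons (2 of 44 tests had an unadjusted p under 0.05). The shares of all tested probe sets called ran from 0% higher and 0% lower (day 10 against day 8) to 22.2% and 22.3% (day 10 against day -2). With 4 genes, 0 calls do not show that their levels were stable. Among 7 genes of transmitter synthesis, transport and breakdown, 3 had a probe set of their own. Slc18a3, the vesicular transporter, read between 18.9 and 102.9 over all 24 arrays and was not tested. Bche, the related butyrylcholinesterase, was also too dim. Slc44a1, a choline transporter, fell by 0.85 (SE 0.20, limma adjusted p = 0.0028) from day 0 to day 2 and rose by 0.64 ± 0.20 (adjusted p = 0.0351) from day 2 to day 4.

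Of 24 genes for factors known to act on E-boxes or to restrain those that do, 19 were tested. Between days -2 and 2, 6 rose (Myog, Mef2c, Mef2a, Mef2d, Hdac5 and Tcf4) and 5 fell (Id3, Id1, Id2, Myf5 and Snai2), against 16.5% and 16.1% of all tested, with a median log2 change of 0.22 over the 19 and 0 over all tested. From day -1 to day 0, 9 rose and 2 fell, against 11.9% and 13.9%. Myogenin, encoded by Myog, read 574, 786 and 539.8 on day -1 and 17916, 14105 and 28378 on day 0, a rise of 4.95 ± 0.22 (log2, limma adjusted p = 6.61e-14). Myog thus rose in the step in which Chrna1, Chrnd and Chrng first rose, and its step from day 0 to day 2 was 0.44 (adjusted p = 0.182). Mef2c, a MADS-box partner of the myogenic factors, reached the filter only on its high days and so could enter the tests only with a difference. As a description, Mef2c was 5.22 ± 0.42 higher on day 2 than on day -2, with 2 of the 3 day -2 arrays at the floor. Id3, which sequesters the E-protein partners, fell by 3.17 on the log2 scale (SE 0.15, adjusted p = 3.87e-14) over that span. From day -1 to day 0, where 3 receptor genes first rose, Id3 instead rose by 0.72 ± 0.15 (limma adjusted p = 0.000777), as did the related Id1 (1.25 ± 0.13) and Id2 (0.68 ± 0.16). Between days -2 and 2 Mef2a rose by 1.76 ± 0.11 (adjusted p = 6.38e-12).

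From day 2 to day 4, 5 of the 19 rose (Myf6, Tcf4, Id3, Snai2 and Hdac5) and 1 fell (Id2), against 6.39% and 7.56% of all tested. Myf6, singled out after its values were seen, encodes the late myogenic factor MRF4. Its 3 arrays read 48, 54.6 and 28.8 on day 2, all below the floor, and 1314, 590.1 and 973.5 on day 4. Myf6 was at least 11.8-fold higher on day 4 than the floor, a value given as a description, since the gene reached the filter only through days 4 to 10. On day 10 Myf6 read 755, 802 and 414.

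Genes of the myotube list had higher means from day 0 on than on the proliferating days. Most genes of the myoblast list were not highest on the proliferating days. All 6 myotube genes (Myh3, Acta1, Ckm, Tnnt3, Myog and Mb) were tested, and their summed intensity was 1962 to 2976 on day -2, 31920.3 to 46730.2 on day 0 and 121268 to 127419.7 on day 2. On day 0 this sum was carried by Myog (mean 20132.9) and Acta1 (mean 15154.3). The sum rose into day 0 and again into day 2, as did Chrna1, Chrnd and Chrng, whereas Chrnb1 first rose into day 2. Its part in the changes of the receptor genes was not tested. In these bulk samples fewer myotubes and less RNA per myotube cannot be told apart. On day 4 the myotube sum was 102104 to 118883, so it was below that of day 2 where Ache was higher. The sum of 6 myoblast genes was 24656 to 25140.4 on day -2 and at most 43488, on day 0. On days 2 to 10 it was 28032 to 34098, above all 6 arrays of the proliferating days, so this sum did not mark the proliferating days by a higher level. Myf5 of this list was higher on those days, with means of 1026.5 on day -2 and 830.3 on day -1 against 403.6 on day 2 and 292.1 on day 10. The rest of the list went the other way between days -2 and 10. The means were 12092.8 and 13999.5 for Myod1, 2435.8 and 4315.3 for Des, and 260.2 and 343.8 for Vim. For Cdh15 they were 5858.2 and 8400.8, and for Ncam1 3222.1 and 4907.3.

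Of 12 neuron genes 10 had a probe set of their own and 5 were tested. Syp, Snap25, Syt1 and Slc18a3 lay below the 40th percentile on all 24 arrays. The list's sum ran from 18823 to 22888 on day -2 and from 11224.5 to 13736 on day 0, carried by Tubb3 and Stmn2. It was thus lower on day 0, where 3 receptor genes first rose, and higher again on day 2 (15378 to 19899.1), where the mean of Tubb3 went from 8968 to 14324 and all 4 receptor genes rose. Its part in that step was not tested. The sum of 6 measured glial genes was 3017 to 3914 on day -2 and 9769.6 to 10225.5 on day 2, and Erbb3, which is also in the junction list, made up 7462 of the day 2 mean. Its part in the results was not tested. Over all 24 arrays the macrophage sum ran from 1709 to 2749 and the endothelial sum from 314 to 1599. The adipocyte sum, over 4 genes with a probe set of their own, was higher on day 0, lower on day 2 and higher again on day 4. From day 0 to day 2 it thus moved against the receptor genes. The sum was 1555 to 1930.2 on day -2, 3920.1 to 4015.5 on day 0, 1581.5 to 1929 on day 2 and 3242 to 3973 on day 4, with Cebpa at a mean of 1432 on day 2 and 3230.5 on day 4. Pparg, the other tested gene of this list, had means of 421.3 on day -2, 203.7 on day 0, 117.2 on day 2 and 95.1 on day 4. Adipoq and Fabp4, defining genes of fat cells, were below the 40th percentile on all arrays, and the part of this list in the steps was not tested.

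The arrays came from 5 chip lots and were scanned on 11 days, and 7 of the scan days held arrays of more than 1 sampled day. In the largest lot, of 10 arrays, Chrna1 was 1.00 higher on day 0 than on day -1 and Chrng 95639_at 3.12 higher, each from 2 arrays against 1. In that lot Chrnb1 was 0.14 higher, and from day 0 to day 2, with 2 arrays a day, the changes were 0.75 for Chrna1, 1.09 for Chrnb1, 1.61 for Chrng 95639_at and 0.02 for Ache. Ache was 4.03 higher on day 10 than on day 2 in that lot, from 1 array against 2.  No scan day held day 0 together with day -1 or day -2.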

How the data were processed

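Total RNA of C2C12 cells was measured on 24 arrays, and the table deposited by the authors held linear intensities for each probe set. The authors' method of summarising probes is not given in the sources used here. Array means without the outer 2% lay between 1500.85 and 1500.98, so no scaling was added. Symbols came from the platform annotation, updated by gene identifier for 10817 probe sets. After a floor at the 20th percentile (77) and log2, 8484 probe sets with a daily mean above the 40th percentile (277.7) were fitted in limma 3.58.1 (R 4.3.3, lmFit, contrasts.fit, eBayes with a trend) over the 8 days, with 16 residual and 6.43 prior degrees of freedom. Each p was 2-sided and adjusted over the 8484 by the Benjamini-Hochberg method, with calls at adjusted p under 0.05. The script was tested on simulated data. A gene with 2 probe sets was represented by the brighter where 1 was needed. Pattern neighbours were the 4 other genes with the highest Pearson r. From the lists, all measured junction and transmitter genes and the 4 regulators with the largest called change between days -2 and 2 were named. The members and lists were chosen with earlier results of these data known. Replicate numbers were not used to pair the arrays in the main fit. Deviations of same-numbered arrays correlated above 0.1 in 16 of 84 pairs (mean r 0.03). Those of different-numbered arrays did so in 14 of 168 pairs (mean r -0.0165). Chip lot and scan day came from the array information files. The number of arrays limits the precision. Alternatives covered normalization, floors, filter, prior, batches, replicate block and each array left out. Permutations used numpy 2.4.6, and figures matplotlib 3.10.9.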

Additional observations from a re-analysis of the deposited data

How the results depend on the processing

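With 1 choice changed at a time, 480 of 497 recomputed member changes kept direction and call under the other settings, as did 990 of 1008 with an array left out. Between days -2 and -1 the number of the 7 probe sets called was 0, with a replicate block 1 (798 probe sets in all against 788), and 0 to 2 with an array left out. Between days 0 and 2 it was 3 with scan day as a fixed factor in place of 5, and between days 2 and 4 it was 1 with scan day or with chip lot as a fixed factor in place of 2. The replicate block changed no other such count by over 1.5 times. The cause of these shifts was not tested. The Colq change from day -2 to day 0 was -0.389 with scan day as a fixed factor in place of 1.58, and was not called without the filter (adjusted p = 0.0515) or in the largest lot alone (0.0526). The other reversals were of changes that were not called. With scan day as a fixed factor they were 0.055 for Chrnb1 between days -2 and 0, -0.024 for Ache between days 0 and 2, and, between days 2 and 10, -0.035 for Chrnd and -0.347 for Chrng 95639_at. With chip lot as a fixed factor they were 0.044 for Chrnb1 between days -2 and 0, -0.167 for Chrng 161215_at between days 2 and 4 and -0.061 for Chrng 95639_at between days 2 and 10, where scan day as a random block gave -0.054. With an array left out the ranges were -0.017 to 0.498 for Ache between days -1 and 0, -0.176 to 0.042 for Chrnb1 between days -2 and 0, and -0.14 to 0.066 for Chrnd between days 2 and 4. Between days 2 and 10 they were -0.052 to 0.142 for Chrna1, -0.067 to 0.168 for Chrng 95639_at and -0.023 to 0.257 for Chrng 161215_at. Of the 15 pairs, 13 differed in course after quantile normalization and 15 with a floor at the 40th percentile, in place of 12. Ache up to day 2 lay close to background, so smaller changes there cannot be read at this signal.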
